A study of Mus musculus with 4 samples.

Results

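Interferon receptors and the genes that interferons induce were followed as a set of 39 genes, out of 23284 gene symbols in the count files. The set is a list of names with no threshold on measured values, drawn up with earlier results of these data known. It holds 4 receptor chains, 5 sensors of foreign nucleic acid and their regulators, 4 transcription factors, 21 genes of the type I interferon response and 5 GTPases of the interferon-gamma response. All 39 symbols were found in the files. The libraries came from regulatory T cells (Treg cells) sorted from the epididymal fat pad (eWAT, white adipose tissue of the abdomen) and from spleen of C57BL/6 mice aged 12 to 13 months. Mice were either wild type (WT) or carried PPARg-2KR (2KR), a form of the nuclear receptor PPARγ in which, as background, 2 lysines are replaced by arginine. Each of the 4 combinations of tissue and genotype was 1 RNA sequencing library, and spleen Treg cells served as the control for fat. Whether a library was 1 mouse or a pool, which cells of the mutant mice carry the allele, and how the Treg cells were gated are not stated in the labels.

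Interferons are secreted proteins that warn cells of infection. Type I interferons bind the IFNAR1 and IFNAR2 chains, and interferon-gamma binds IFNGR1 and IFNGR2. Both pairs signal through JAK kinases to STAT factors. The type I response acts through ISGF3, a complex that contains STAT2 and IRF9 and binds the interferon-stimulated response element (ISRE), and the interferon-gamma response acts through the gamma-activated site (GAS). The induced genes encode antiviral effectors, feedback inhibitors and GTPases that act on intracellular microbes, and a basal level of this programme is common in lymphocytes. In Treg cells, interferon signalling is known to alter suppressive function, and visceral fat Treg cells depend on PPARγ for their identity.

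Values are CPM, read counts relative to the library total after TMM scaling, which corrects for library composition, and 4 values in a row are always in the order WT spleen, 2KR spleen, WT eWAT, 2KR eWAT. Library totals were 13250590, 15993889, 11186660 and 8315569 counts. The Treg label was checked against Foxp3, Il2ra, Ctla4, Ikzf2, Cd4, Cd3e and Tnfrsf18, which had reads in every library and summed to 6413, 5791, 6980 and 5383 CPM. Of these 7, Ctla4 was higher in eWAT (log2 fold change 1.5 ± 0.28 (SE)), Cd3e (-1.03 ± 0.26 (SE)) and Cd4 (-0.67 ± 0.23 (SE)) were lower, and Foxp3 (-0.46) and the other 3 did not pass. Markers of other cells were higher in fat: the 11 macrophage and monocyte genes measured summed to 140.4, 98.7, 1450 and 1856 CPM and 11 of 11 passed the test as higher in eWAT. The 8 conventional dendritic cell genes, 8 of 8 higher, summed to 124, 87.2, 2350.3 and 4090.5 CPM, with 1 at 0 in 2KR spleen, and the 8 fibroblast and mesothelial genes, also 8 of 8 higher, to 7.50, 4.13, 545 and 230.1 CPM. Among all genes tested, 33.7% were higher in eWAT. Some of these markers had almost no spleen reads, such as Lum (0 and 0) and Clec10a (1 and 0). They entered the test only through the fat libraries, so the filter favoured a call of higher for them. Other lists were mixed: of 7 B cell genes, 3 were higher and 1 lower, with sums of 98.6, 83.0, 89.6 and 159 CPM. Of 7 NK and CD8 T cell genes, 2 were higher and 1 lower, with sums of 71.1, 75.8, 72.8 and 65.4 CPM. In bulk libraries of this kind, fewer cells of a type and less RNA per cell cannot be told apart.

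As background, many interferon-induced genes carry an ISRE near their start, so promoter windows with its letters are shown first. RefSeq promoters (GRCm38.p6, 250 bases before to 50 after the annotated start) were matched for 30 of the 39 members. An ISRE-like match was defined as GAAA, any 2 bases and GAAA again, on either strand. It was present in 14 of 30 member promoters (46.7%), against 3.99% of the 27025 genes with a promoter. A longer form, with CT after the second GAAA, was in 8 of 30 (26.7%) against 0.303%. The GAS-like TTCNNNGAA was in 9 of 30 (30%) against 9.55%, and in 1 promoter, that of Bst2, it overlapped an ISRE-like match. The windows below run 5′ to 3′ on the gene's strand, with the ISRE-like letters of either orientation in capitals and up to 20 flanking bases on each side. They were picked to cover genes that were lower in fat (Stat2, Ifit1, Gbp2, Igtp, Irgm1), one that was higher (Rsad2) and 2 that did not pass the test (Isg15, Bst2).
Stat2 (chr10:128270256-128270305, plus strand): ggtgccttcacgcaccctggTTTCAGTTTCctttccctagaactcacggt
Ifit1 (chr19:34640765-34640833, plus strand): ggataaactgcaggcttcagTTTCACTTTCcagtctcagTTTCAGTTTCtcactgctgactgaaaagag
Isg15 (chr4:156200855-156200916, minus strand): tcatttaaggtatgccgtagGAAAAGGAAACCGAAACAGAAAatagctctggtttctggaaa
Rsad2 (chr12:26456543-26456592, minus strand): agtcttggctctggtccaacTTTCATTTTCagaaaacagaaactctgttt
Bst2 (chr8:71537567-71537622, minus strand): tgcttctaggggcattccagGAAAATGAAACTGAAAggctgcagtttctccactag
Gbp2 (chr3:142620584-142620633, plus strand): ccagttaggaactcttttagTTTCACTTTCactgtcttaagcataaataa
Igtp (chr11:58199502-58199551, plus strand): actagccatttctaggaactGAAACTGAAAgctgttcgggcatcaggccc
Irgm1 (chr11:48871421-48871470, minus strand): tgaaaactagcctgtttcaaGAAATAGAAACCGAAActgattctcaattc

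In these promoters the nearest ISRE-like match ended between 14 bases (Irgm1) and 212 bases (Stat2) before the start. Isg15 carried 3 overlapping matches, whereas Stat2, Rsad2, Gbp2 and Igtp carried 1 each. By group, the letters occurred in 4 of the 5 GTPase promoters, 7 of 14 effector, 2 of 3 sensor, 1 of 4 transcription factor and 0 of 4 receptor promoters. Of the 19 matched members that were lower in fat, 11 held the letters, as did 2 of the 9 that did not pass and 1 of the 2 that were higher. A match describes the letters only and is not evidence of binding, and its absence from a window says nothing about the factor.

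**Figure D1:**
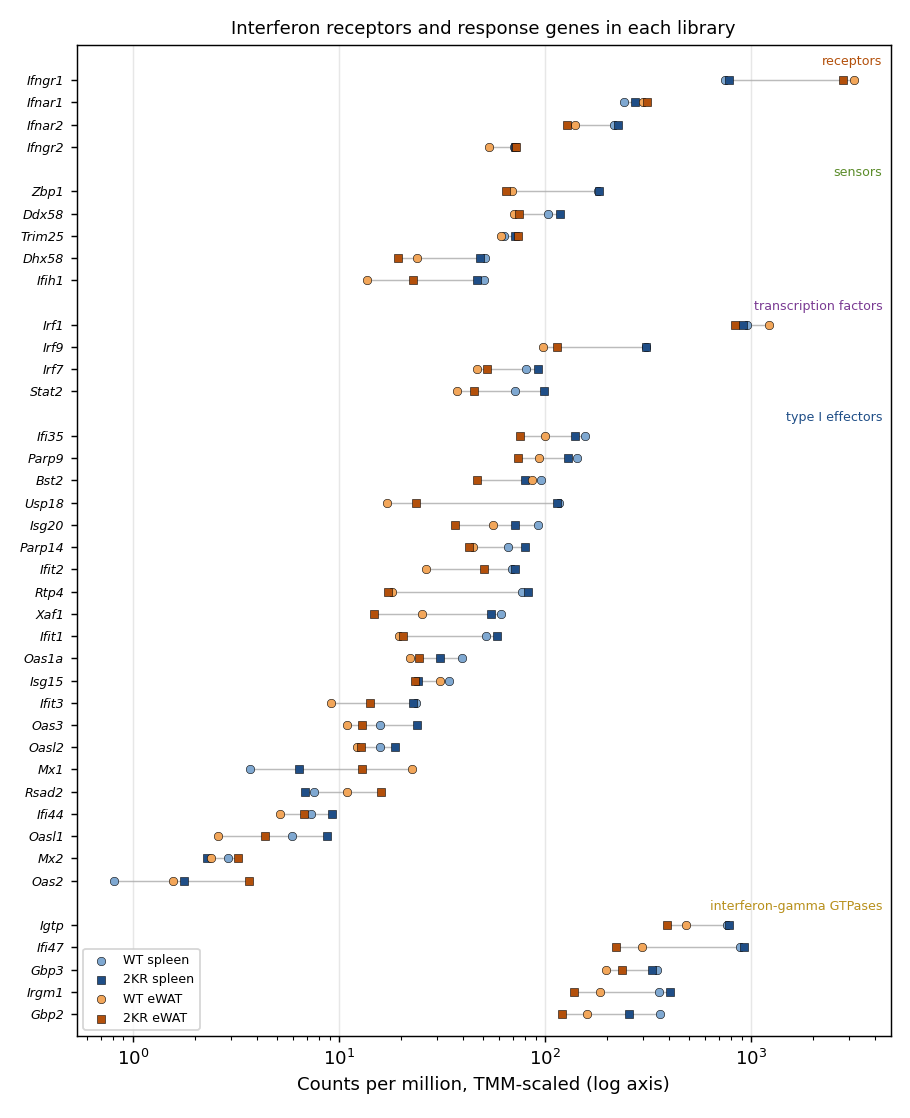
Level of each of the 39 members in CPM (log axis) in the 4 libraries, grouped by role and ordered by mean level. Circles are WT, squares 2KR, blue spleen and orange eWAT. The eWAT points of Ifngr1, at 3141 and 2805, are the furthest right, and most effectors and all 5 GTPases have both blue points to the right of both orange points.

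The members spanned more than 3 orders of magnitude. Per transcript length, in FPKM (fragments scaled to transcript length and to the size of the library, as deposited), Ifi47 was the highest member in both spleen libraries, at 564 and 601 FPKM, followed by Irf1 at 429 and 419.7 FPKM. In both eWAT libraries Ifngr1 took first place at 1574 and 1707 FPKM, ahead of Irf1 at 587 and 487 FPKM. At the other end, Oas2 stood at 0.199, 0.363, 0.167 and 0.852 FPKM and Mx2 at 1.09, 0.983, 1.19 and 1.41 FPKM. Summed over its members, the receptor group measured 526, 565, 1719 and 1882 FPKM, of which Ifngr1 alone was 358, 381, 1574 and 1707 FPKM. The GTPase group measured 1392, 1422, 682 and 685 FPKM, and the type I effector group 732, 665, 472 and 422 FPKM. The transcription factor group was at 611, 620, 661 and 586 FPKM and the sensor group at 188, 191, 93.4 and 109 FPKM.

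The first comparison, the one named in the series design, asked how fat Treg cells differ from spleen Treg cells, with both genotypes of a tissue in one group (2 libraries against 2). Most interferon response genes were lower in fat, while the interferon-gamma receptor chain Ifngr1 was higher. Of the 39 members, 25 were lower in eWAT at an adjusted p under 0.05, 3 were higher and 11 did not pass (edgeR's quasi-likelihood test, Benjamini-Hochberg adjustment over 16488 genes). Over all genes tested, 23.2% were lower and 33.7% higher. The median log2 fold change of eWAT over spleen was -0.74 over the members and 0.11 over all genes tested. Many of the genes that were higher in fat had few counts, and among the 7685 genes at a mean of 20 CPM or more, 42.8% were lower and 10.2% higher. Of the 30 members in that range, 23 were lower and 1 was higher, with a median of -0.81 against -0.41 for all genes of that range. The lower count was 16 when either spleen library, WT or 2KR, was left out, and 16 with limma on log2(FPKM + 1). Since a tissue's 2 libraries differ in genotype, the spread behind each p-value contains any genotype effect.

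**Figure D2:**
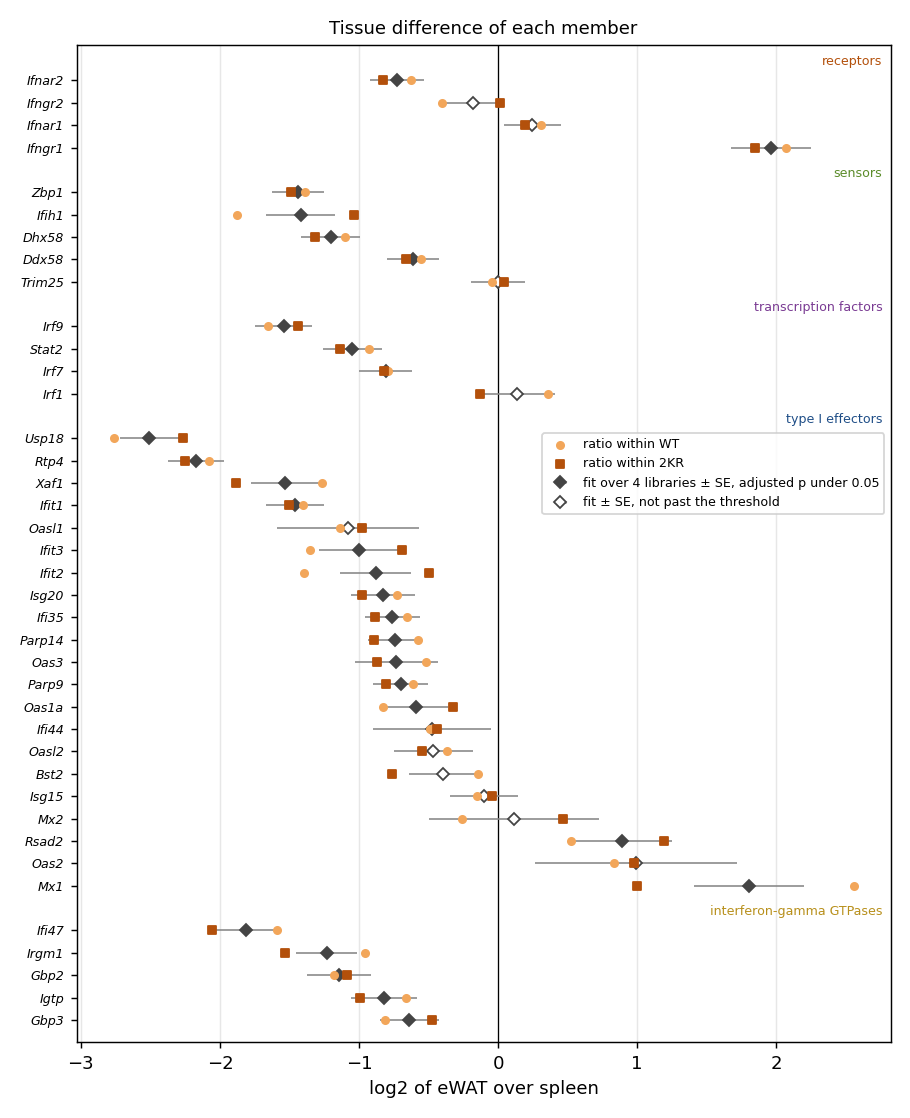
Tissue difference of each member as log2 of eWAT over spleen: diamonds are the fit over 4 libraries with its standard error, filled where the adjusted p is under 0.05, and the orange marks are the single ratios within WT (circles) and within 2KR (squares). Ifngr1 lies near 2 in both genotypes and Usp18 below -2 in both.

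Among the receptors, only Ifngr1, the ligand-binding chain of the interferon-gamma receptor, was higher in fat. It measured 747, 778, 3141 and 2805 CPM, so both fat libraries stood far above both spleen libraries. The log2 fold change was 1.96 ± 0.29 (SE) with an adjusted p of 1.34e-04, or 3.9-fold, and it passed in 11 of 11 alternative settings. Its partner chain Ifngr2, which brings JAK2 to the complex, measured 71.1, 71.5, 53.6 and 72.2 CPM. The WT eWAT library was the lowest of these and the other 3 lay together, and the fold change of -0.18 ± 0.20 (SE) did not pass (adjusted p = 0.453). Per length, the ratio of Ifngr1 to Ifngr2 was 10.4 and 10.8 in spleen and 57.5 and 39.1 in fat. Macrophage and dendritic cell markers were higher in the same fat libraries, and their part in the level of Ifngr1 was not tested.

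Of the type I interferon receptor chains, Ifnar2 was lower in fat and Ifnar1 did not pass. Ifnar2, the chain with the higher affinity for interferon, measured 216, 227, 139.7 and 128 CPM, with a log2 fold change of -0.73 ± 0.19 (SE) with an adjusted p of 0.0067. The call was lost without the WT spleen or without the 2KR spleen library, with an adjusted p of up to 0.133. Ifnar1, which carries TYK2, measured 243, 273, 300.3 and 312 CPM, with both fat values above both spleen values but a fold change of 0.25 ± 0.21 (SE) that did not pass (adjusted p = 0.323). The FPKM ratio of Ifnar2 to Ifnar1 was 3.14 and 3.03 in spleen and 1.84 and 1.5 in fat. Ifnar2 has 2 annotated transcripts, and the shorter, of 1169 bases against 3045, held 49.4, 53.0, 60.3 and 53.9% of its FPKM. The fat and spleen shares of that transcript were close in the 2KR mice and further apart in WT.

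Of the 5 sensors and their regulators, 4 were lower in fat. All 5 were at a mean of 20 CPM or more, a range where 42.8% of all genes were lower. Zbp1, a sensor of Z-form nucleic acid that can start cell death, measured 180.2, 182, 68.8 and 64.8 CPM, a log2 fold change of -1.44 ± 0.19 (SE) with an adjusted p of 5.10e-05. Ifih1 (MDA5), a sensor of long double-stranded RNA, measured 50.5, 47.0, 13.7 and 22.9 CPM, a fold change of -1.42 ± 0.25 (SE), adjusted p = 5.23e-04. For both genes the fat and spleen libraries did not overlap, but the fat values of Ifih1 were further apart, with WT the lowest. Dhx58 (LGP2), which lacks the signalling domains of the other helicases, was at 51.1, 48.3, 23.8 and 19.4 CPM and had a fold change of -1.20 ± 0.21 (SE). Ddx58 (RIG-I), a sensor of viral RNA ends, was at 104, 118, 70.7 and 74.4 CPM and had a fold change of -0.61 ± 0.19 (SE), adjusted p = 0.0129. Trim25, the ubiquitin ligase known for activating RIG-I, did not pass and had nearly the same mean in both tissues. Its values were 63.3, 71.9, 61.3 and 73.9 CPM, and its log2 fold change lay between the single ratios of -0.05 within WT and 0.04 within 2KR.

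Of the 4 transcription factors, the 3 tied to the type I pathway were lower in fat, and Irf1 did not pass. In their range, a mean of 20 CPM or more, 42.8% of all genes were lower. Irf9, the DNA-binding part of ISGF3, measured 308, 308, 97.8 and 114 CPM, a log2 fold change of -1.54 ± 0.20 (SE) with an adjusted p of 5.68e-05. Its partner Stat2 measured 71.5, 99.4, 37.5 and 45.2 CPM, a fold change of -1.05 ± 0.21 (SE), adjusted p = 0.00137. Irf7, which drives the amplification of type I interferon production, measured 80.6, 92.7, 46.5 and 52.5 CPM, a fold change of -0.81 ± 0.19 (SE). All 3 had both fat libraries below both spleen libraries. Irf1, a factor induced by interferon-gamma, measured 950.4, 914, 1219 and 833 CPM, with WT eWAT the highest library and 2KR eWAT the lowest. Its fold change of 0.14 ± 0.27 (SE) did not pass (adjusted p = 0.675), and the single ratios were 0.36 within WT and -0.13 within 2KR.

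Of the 21 type I effectors, 12 were lower, 2 were higher and 7 did not pass. Over all genes tested, 23.2% were lower and 33.7% higher, and at a mean of 20 CPM or more 42.8% and 10.2%. Usp18, which removes ISG15 from proteins and blocks IFNAR2 signalling, showed the lowest fold change of all 39 members. It measured 118, 114, 17.2 and 23.6 CPM, a log2 fold change of -2.51 ± 0.21 (SE) with an adjusted p of 1.02e-06, or 5.69-fold lower in fat. Rtp4, an interferon-induced chaperone and antiviral protein, measured 77.0, 82.6, 18.1 and 17.3 CPM, a fold change of -2.17 ± 0.20 (SE), adjusted p = 2.26e-06. Both genes had closely matched spleen values, and every fat value lay far below them. Xaf1, which antagonises the apoptosis inhibitor XIAP, measured 61.0, 54.9, 25.3 and 14.8 CPM, a fold change of -1.53 ± 0.25 (SE). Ifit1, a binder of viral RNA caps, measured 51.9, 58.3, 19.6 and 20.5 CPM, a fold change of -1.46 ± 0.21 (SE), with the fat libraries close to each other and well below spleen.

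Ifit2 and Ifit3, relatives of Ifit1, were also lower, but the 2KR fat library was nearer to spleen than the WT fat library was. Ifit2 measured 69.5, 71.6, 26.3 and 50.6 CPM (log2 fold change -0.88 ± 0.26 (SE), adjusted p = 0.0104) and Ifit3 23.6, 23.0, 9.14 and 14.1 CPM (-1.0 ± 0.29 (SE), adjusted p = 0.00949). Other lower effectors had log2 fold changes of -0.83 (Isg20, an RNA nuclease), -0.76 (Ifi35), -0.74 and -0.70 (Parp14 and Parp9, of the ADP-ribosyltransferase family), -0.73 (Oas3) and -0.59 (Oas1a). Isg20 measured 92.9, 71.8, 56.2 and 36.4 CPM, and in each tissue the 2KR library was the lower one. Ifi35 measured 157, 139.7, 99.7 and 75.6 CPM and Parp9 143, 129, 93.3 and 73.7 CPM, with the same order. Parp14 measured 66.3, 79.6, 44.5 and 42.9 CPM, where only the spleen libraries differed by genotype beyond counting error. The Oas proteins make the messenger that activates RNase L, and Oas3 measured 15.8, 24.0, 10.98 and 13.0 CPM and Oas1a 39.4, 30.8, 22.1 and 24.6 CPM. Oas3 (adjusted p = 0.0491) and Oas1a (adjusted p = 0.0374) lay close to the threshold. Isg20 has 2 annotated transcripts, and the one of 892 bases held 75.8, 75.1, 62.9 and 63.2% of its FPKM, so the fat libraries lay below the spleen libraries in that share. Zbp1 showed the opposite order for its shorter transcript of 781 bases, at 45.3, 42.5, 55.8 and 52.6%.

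The 2 effectors that were higher in fat were both near the bottom of the range. Mx1, a GTPase that blocks influenza virus and is defective in most inbred strains including C57BL/6, measured 3.71, 6.42, 22.6 and 13.0 CPM, a log2 fold change of 1.81 ± 0.40 (SE) with an adjusted p of 0.00216. Rsad2 (viperin), which makes an antiviral nucleotide, measured 7.58, 6.88, 10.98 and 15.9 CPM, a fold change of 0.89 ± 0.36 (SE), adjusted p = 0.0449. The fat and spleen values did not overlap for either gene, and in fat WT was the higher library for Mx1 and 2KR the higher for Rsad2. The Rsad2 call passed in 2 of 11 alternative settings. These calls stand beside the macrophage and dendritic cell markers, which were also higher in fat, and the part of those cells in them was not tested.

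Of the 7 effectors that did not pass, Bst2 (tetherin), which holds budding virus at the cell surface, measured 95.8, 79.8, 86.5 and 46.9 CPM, with 3 libraries close and 2KR eWAT the lowest. Isg15, a ubiquitin-like modifier, measured 34.4, 24.1, 30.9 and 23.4 CPM, where the libraries paired by genotype rather than by tissue. The remaining 5 were Oasl1 at -1.08, Ifi44 at -0.48, Oasl2 at -0.47, Mx2 at 0.11 and Oas2 at 0.99 on the log2 scale of eWAT over spleen. Oasl1 measured 5.89, 8.77, 2.58 and 4.37 CPM, Ifi44 7.34, 9.23, 5.17 and 6.76 CPM and Oasl2 15.9, 18.7, 12.3 and 12.8 CPM, in each case with both fat libraries below both spleen libraries. Mx2 measured 2.90, 2.29, 2.40 and 3.23 CPM and Oas2 0.807, 1.77, 1.57 and 3.64 CPM, which leaves their ratios imprecise. Mx1 and Mx2, the Oas genes and the Gbp genes have close relatives, and how reads shared between copies were counted is not given.

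All 5 GTPases of the interferon-gamma response were lower in fat, against 42.8% of all genes in their range, a mean of 20 CPM or more. Ifi47 (IRG-47), of the immunity-related GTPases that attack vacuoles of intracellular microbes, measured 886, 923, 295 and 222 CPM, a log2 fold change of -1.81 ± 0.25 (SE) with an adjusted p of 7.89e-05. Igtp, of the same family, measured 763, 782, 482 and 393 CPM, a fold change of -0.82 ± 0.24 (SE), adjusted p = 0.0102. Irgm1, a regulator of that family and of autophagy, measured 357, 402, 184 and 139 CPM, a fold change of -1.23 ± 0.22 (SE), adjusted p = 6.44e-04. In all 3 the 2KR fat library was the lowest of the 4, and the spleen libraries lay above both fat libraries. The guanylate-binding protein genes Gbp2, at 361, 256, 159 and 120.4 CPM, and Gbp3, at 348, 329, 199 and 237 CPM, had fold changes of -1.14 ± 0.23 (SE) and -0.64 ± 0.21 (SE). Gbp3 passed in 6 of 11 alternative settings, the fewest with Oas1a among the lower members. The Ifi47 locus (chr11:48900557-48910473, mm9) overlaps Olfr56, which had 3, 7, 6 and 23 reads. That of Parp9 (chr16:35938556-35972707, mm9) overlaps Dtx3l, which had 1760, 2275, 1027 and 829 reads against 1771, 1965, 1011 and 708 for Parp9. How reads in the overlap were assigned is not given, so the Parp9 values are uncertain.

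**Figure D3:**
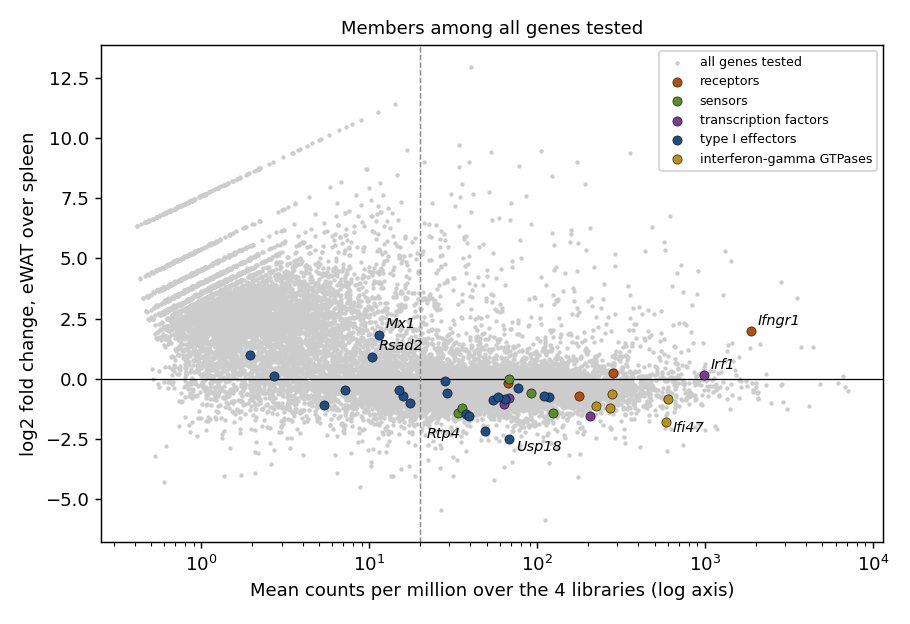
Log2 fold change of eWAT over spleen against mean CPM over the 4 libraries (log axis), for all 16488 genes tested (grey) and the members (coloured by group); the dashed line marks 20 CPM. Ifngr1 stands at 1.96, the highest member in both level and fold change, and Usp18 and Rtp4 lie at the lower edge of the members.

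Beyond the 39 members, 89 other genes of the interferon pathway were listed and 85 were in the files. Of the 77 tested, 37 were lower in fat, 14 higher and 26 did not pass. The shares over all genes tested were 23.2% lower and 33.7% higher. At a mean of 20 CPM or more they were 42.8% lower and 10.2% higher. Jak2, the kinase bound to IFNGR2, measured 165, 202, 365 and 439.6 CPM and was higher by 1.13 ± 0.22 (SE), adjusted p = 0.00112. Both fat libraries were above both spleen libraries for Jak2, while Jak1 (-0.37), Tyk2 (-0.22) and Stat3 (-0.43) did not pass. Of the 6 negative regulators, Socs1 (-1.23), Socs3 (-0.98), Ptpn6 (-1.45) and Irf2 (-0.85) were lower, and Ptpn2 (-0.09) and Pias1 (-0.18) did not pass.

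Interferon-gamma itself was detected. Ifng measured 14.1, 15.6, 36.8 and 67.5 CPM and was higher in fat by 1.81 ± 0.27 (SE), adjusted p = 1.62e-04, with 2KR eWAT the highest library. Type I interferon genes were close to the limit of detection, the most abundant being Ifnb1 at 0.565, 0.131, 1.38 and 1.66 CPM (7, 2, 15 and 16 reads). Of the 10 interferon genes listed, 3 were tested and all 3 were higher in fat. Ifnb1 was higher by 2.15 ± 0.84 (SE), adjusted p = 0.041. The lambda interferon gene Il28b (0, 4, 10 and 9 reads) was higher by 2.63, adjusted p = 0.0367. Ifnb1 and Il28b reached the filter on low counts only in the fat libraries, so the filter favoured a call of higher for them. Among all genes tested, 33.7% were called higher in fat. Among sensing adaptors, Tmem173 (STING), at 737, 698, 219 and 208 CPM, and Ikbke were lower (-1.75 and -1.66), and Tbk1 and Myd88 did not pass. Of 33 other interferon-induced genes, 19 were lower and 4 higher. The 4 of these at the highest level were Ly6e (-0.28) and Samhd1 (-0.58), which did not pass, and Sp100 (-0.71) and Slfn2 (-1.51), which were lower. Of 17 other interferon-gamma-induced genes, 8 were lower and 3 were higher. Among the lower were the immunoproteasome gene Psmb8 (-1.09) and the peptide transporter gene Tap1 (-1.17). For both lists of induced genes, the shares over all genes were 23.2% lower and 33.7% higher. At a mean of 20 CPM or more they were 42.8% and 10.2%.

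Some genes of the pathway that were higher in fat, named after their values were seen, stood out in size. Ifitm3, which blocks virus entry, measured 5.57, 4.39, 115 and 118 CPM, a log2 fold change of 4.55 ± 0.23 (SE). Cxcl10, a chemokine, measured 50.5, 47.1, 290.2 and 167 CPM and Ciita, the activator of MHC class II genes, 7.74, 7.53, 22.9 and 38.5 CPM. These were higher in both fat libraries, as were the macrophage and dendritic cell markers, whose part in them was not tested. Genes of plasmacytoid dendritic cells, a known source of type I interferon, summed to 123, 109, 51.2 and 72.3 CPM. Of the 4 tested, 3 were higher in fat, against 33.7% of all genes tested, and 1, Pacsin1, was lower. Pacsin1 held most of the spleen sums, at 106, 96.7, 19.5 and 14.1 CPM. Without Pacsin1, a step that was not planned, the other 5 genes summed to 16.8, 12.3, 31.8 and 58.2 CPM. Tcf4 alone made up 12.6, 9.23, 21.3 and 40.2 CPM of that.

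The second comparison asked how the 2KR libraries differ from the WT libraries. In a fit common to both tissues (2 libraries against 2, with tissue as a term and 1 residual degree of freedom), 0 members were higher and 0 lower in 2KR by edgeR's quasi-likelihood test, and DESeq2 also called 0 in each direction. Over all genes tested, 0% were higher and 0.0667% lower. At an unadjusted p under 0.05 there were 7 of 39 members and 777 of 16488 genes. Of the 7, Stat2 and Ifit2 were above 0 and Isg15, Isg20, Bst2, Xaf1 and Gbp2 below. Their log2 fold changes lay between -0.57 (Bst2) and 0.48 (Ifit2), and every adjusted p was 0.819 or more.

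Within one tissue there is 1 library for each genotype, so no test was possible and only the ratio with its counting error is given (exact binomial interval on the reads). In fat, 37 members had 5 CPM or more in at least 1 library, Mx2 and Oas2 being the exceptions. None was past 2-fold, with 0 higher and 0 lower, against 5.35% of all genes at that level higher and 2.33% lower. Past 1.5-fold, 4 were higher (background 14.7%) and 4 lower (background 10.1%). Past 1.5-fold with total-count scaling, a combination added after seeing the data, 8 were higher (background 23.8%) and 1 lower (background 3.78%). With TMM scaling the higher ones were Ifit2 at 0.94 (95% interval 0.73 to 1.16), Ifih1 at 0.74, Oasl1 at 0.72 and Ifit3 at 0.62 on the log2 scale of 2KR over WT. The lower ones were Bst2 at -0.88 (95% interval -1.05 to -0.72), Mx1 at -0.79, Xaf1 at -0.77 and Isg20 at -0.62. The median over the 37 was 0.06, with 19 above 0 and 18 below, and the split was 24 to 13 with total-count scaling.

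Among the most abundant members in fat, Irf1 was lower in the 2KR library by a log2 ratio of -0.55 (95% interval -0.59 to -0.51), while its ratio in spleen was -0.06. Of the GTPases, Gbp2 (-0.40), Igtp (-0.30), Irgm1 (-0.41) and Ifi47 (-0.41) were below 0 in fat and Gbp3 (0.26) above. Ifngr1 had a ratio of -0.16 (95% interval -0.19 to -0.14), and Ifngr2 one of 0.43 (95% interval 0.27 to 0.59). The scaling matters for such sizes: with total-count scaling the median ratio of all genes in fat moved from -0.08 to 0.18, and Ifnar2, Ifngr1, Zbp1, Rtp4 and Parp14 changed sign. By FPKM the same 5 changed sign, and Ifngr1 was higher in 2KR fat (1707 against 1574 FPKM). In the same 2 libraries, 6 of the 7 Treg markers were below 0 in 2KR over WT and 1 was above, with a median log2 ratio of -0.37. There, 11 of 11 macrophage and 7 of 8 dendritic cell markers were above 0 and 0 of 8 fibroblast markers were. Mast cell markers were above 0 for 6 of 6 genes (median log2 ratio 3.32, sums of 12.4 CPM in WT and 79.2 CPM in 2KR) and B cell markers for 6 of 6 at 5 CPM or more (median 1.0). The part of these cells in the ratios was not tested.

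In spleen the 37 genotype ratios spanned -0.51 to 0.76, and in fat -0.88 to 0.94. Of these members, 0 were past 2-fold in either direction, against 1.01% of all genes higher and 5.71% lower. Past 1.5-fold, 2 were higher (background 3.04%), Mx1 at 0.76 (0.27 to 1.33) and Oas3 at 0.60 (0.35 to 0.86), and 0 were lower (background 11.5%). Oasl1 (0.56) and Stat2 (0.48) came next above 0, and Isg15 (-0.51) and Gbp2 (-0.49) were the furthest below. The median was 0.04. In both tissues the counting interval lay below 0 for Irf1, Isg15, Isg20, Ifi35, Bst2, Xaf1, Parp9 and Gbp2 and above 0 for Trim25, Stat2 and Oasl1. The share of all genes with such intervals was not computed, and the medians of all genes were -0.08 in fat and -0.07 in spleen. Total-count scaling moved all these fat ratios up, Parp9 to -0.09, Isg15 to -0.15 and Trim25 to 0.52. Ifit2, at 0.04, and Ifih1, at -0.10, had spleen intervals that include 0, whereas their fat intervals did not.

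**Figure D4:**
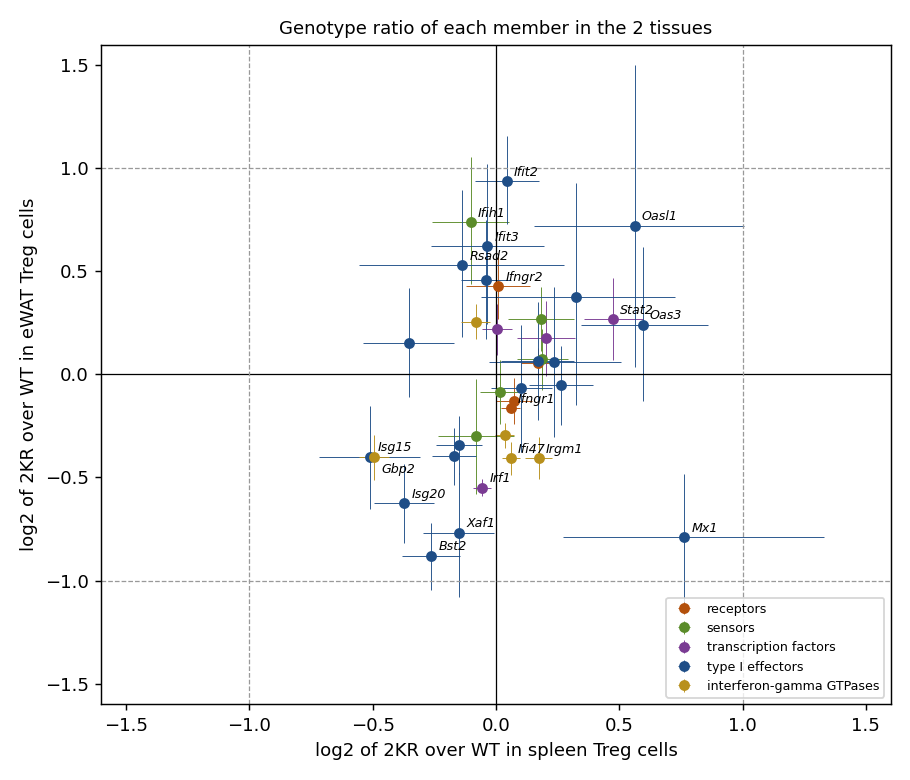
Log2 ratio of 2KR over WT in eWAT against the same ratio in spleen for the 37 members at 5 CPM or more, with exact binomial 95% intervals that cover counting error only; dashed lines mark 2-fold. No member lies past a dashed line, and Mx1 is below 0 in eWAT and above 0 in spleen.

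The tissue difference was present in each genotype on its own. The median log2 ratio of eWAT over spleen over the 37 members was -0.72 within WT and -0.83 within 2KR, and 32 of 37 and 31 of 37 were below 0. For all 12307 genes that entered the ratios, the medians were -0.17 within WT and -0.26 within 2KR. Among genes averaging 20 CPM or more, they were -0.33 within WT and -0.50 within 2KR. Members of that range had medians of -0.80 and -0.89, so part of the shift was shared by all genes. Usp18 was -2.76 within WT and -2.26 within 2KR, Ifi47 -1.59 within WT and -2.06 within 2KR, and Ifngr1 2.07 within WT and 1.85 within 2KR. The widest gaps were in Mx1, at 2.55 within WT and 1.0 within 2KR, and Ifit2, at -1.40 within WT and -0.50 within 2KR. The median difference of the genotype ratios, fat minus spleen, was -0.12, and it was 0.11 with total-count scaling, so its sign depended on the scaling.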

How the data were processed

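RNA from sorted Treg cells was sequenced in 4 libraries, per the labels. Read counts per gene and FPKM per gene and per transcript are the authors' deposited values; per the deposited readme, reads of 100 bases were aligned with Tophat 2.1.0 (up to 4 mismatches and 10 hits) and FPKM came from Cufflinks 2.0.2. The files' loci are in mm9, which the submitters' processing notes name together with mm8. How reads were assigned to genes, by strand or among several hits, is not given in the sources used here; overlapping or near-identical genes are therefore uncertain.

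From the counts, TMM-scaled CPM and edgeR 4.0.16 quasi-likelihood tests (R 4.3.3; filterByExpr, Benjamini-Hochberg adjustment, threshold 0.05) were computed for tissue (2 against 2 libraries, no covariate) and for genotype with tissue as a term. Within one tissue, log2 ratios used a prior count of 2 and exact binomial 95% intervals, which cover counting error only. Genes at 5 CPM or more in 1 library entered the ratios. Alternatives were total-count scaling, DESeq2 1.42.0, its size factors, other filters and prior counts, limma 3.58.1 on log2(FPKM + 1), and leaving out each library. The 2 libraries of a tissue differ in genotype and so come from different mice. No group has a second library, so the p-values do not measure spread between animals of one genotype. Whether fat and spleen of one genotype came from the same animals is not stated in the labels. Promoter letters were searched in RefSeq sequences. The procedure was tested on simulated data. Members, gene lists and marker lists were chosen with earlier results of these data known. All members could be named. Of the other pathway genes, all kinases, STATs and negative regulators, interferon genes with reads and the 4 highest of each other list were named, except 1 gene that is not reported here.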

Additional observations from a re-analysis of the deposited data

Results flagged for a closer look

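The following members had single-library ratios that lay on opposite sides of 0, each beyond its counting interval where 2KR over WT is concerned. With 1 library in each group the difference was not tested. For the log2 ratio of 2KR over WT, Mx1 was at -0.79 in eWAT and 0.76 in spleen, on the lowest counts of these genes. Irgm1 was at -0.41 in eWAT and 0.17 in spleen, and Ifi47 at -0.41 and 0.06. Ifngr1 was at -0.16 in eWAT and 0.06 in spleen, and its eWAT ratio changed sign with total-count scaling (0.09). Gbp3 went the other way, at 0.26 in eWAT and -0.08 in spleen. For the log2 ratio of eWAT over spleen, Irf1 was at 0.36 within WT and -0.13 within 2KR.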

How the results depend on the processing

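The tissue comparison counted 25 lower members, and 16 with limma on log2(FPKM + 1), with the other alternatives between 17 and 26. Leaving out 1 library gave 16 to 27 lower members, the lowest without WT spleen and without 2KR spleen; there the lone library is assumed to vary like the other tissue's. All 25 had the same sign in all 11 alternatives and 9 passed in every one (Dhx58, Zbp1, Irf9, Ifit1, Usp18, Rtp4, Xaf1, Irgm1 and Ifi47), as did Ifngr1 and Mx1. Total-count scaling moved the tissue median of all genes by 0.164 and DESeq2's size factors by -0.139. With total-count scaling the median eWAT ratio of 2KR over WT was 0.31 against 0.06, 1 member was past 2-fold higher (also 1 by FPKM) and the median difference of the genotype ratios was 0.11 (0.0985 by FPKM) against -0.12. With size factors the tissue median within 2KR was -1.01 against -0.83. At 1.5-fold, 4 members were higher and 4 lower in eWAT and 2 higher in spleen, against 0 at 2-fold. At 1.5-fold with total-count scaling, a combination chosen after seeing the data, 8 were higher and 1 lower in eWAT. The longer ISRE gave 8 promoters against 14. The cause was not tested beyond what each setting changes by construction. With genotype as a term, which pairs the tissues within genotype, 25 members were lower and 2 higher, Rsad2 losing its call. Depth limits Mx2 and Oas2, whose highest levels were 3.23 and 3.64 CPM.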
